A study of Mus musculus with 4 samples.

Results

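The protocadherin genes were taken as every row of the deposited raw count table with the biotype protein_coding and a gene symbol that starts with Pcdh. This gave 69 of the 52636 genes in the table. Of these, 14 belonged to the Pcdha cluster, 22 to the Pcdhb cluster and 21 to the Pcdhg cluster on chromosome 18, and 12 were non-clustered protocadherins that lie on chromosomes 3, 5, 10, 14, 18 and X. The members were picked by name only, without use of a measured value.

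Protocadherins are calcium-dependent adhesion proteins of the cadherin superfamily. In the Pcdha and Pcdhg clusters each gene has its own first exon, which encodes the extracellular, transmembrane and proximal cytoplasmic parts, and is spliced to exons shared by the whole cluster, whereas most Pcdhb genes consist of a single exon. A neuron switches on a small and largely random set of the alternate isoforms through looping between promoters and enhancers by CTCF and cohesin, while the C-type genes at the end of the Pcdha and Pcdhg clusters are expressed more regularly. The mixture of isoforms on the cell surface gives the neuron an identity used in self-avoidance of dendrites and axons, and Pcdhg genes also protect interneurons from death. Non-clustered protocadherins, grouped into delta-1 and delta-2 types by their cytoplasmic motifs, act in cell sorting, axon growth and synapse formation.

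The study compared 2 libraries from Fmr1-/y mice with 2 from wild type littermates, all C57BL/6 and 6 to 7 weeks old, by RNA sequencing of 10000 cells per sample sorted from the dentate gyrus, a hippocampal region in which granule neurons are born in adults. Fmr1 encodes FMRP, an RNA-binding regulator of translation, and its knockout allele is not named in the labels. The mice carried Dcx-DsRed, stated for the knockouts and implied for wild type by the series design, a reporter in which Dcx sequences drive a red fluorescent protein that marks neuroblasts and immature neurons. The protocol covers sorts of all living and of DsRed-positive living cells while the series design names the DsRed cells, and no label says that replicates were separate animals, so the p-values reflect only how far these libraries vary, which may be technical.

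Library totals ran from 5478224 to 7213759 counts, and 14673 genes were tested. Levels are given as CPM, counts relative to the library size after TMM scaling. Fmr1 had 73.1 and 91.6 CPM in wild type against 43.4 and 29.7 CPM in knockout libraries, so the knockout values were lower but not near 0, with a log2 fold change of -1.17 (standard error, SE, 0.36) and an unadjusted p of 0.0134 in edgeR's quasi-likelihood test. Dcx was present in every library, at 329.7 and 165.7 CPM in wild type against 456.2 and 211.0 CPM in knockout. Neuroblast and immature granule neuron markers (10 genes) summed to 1682 to 3656 CPM, astrocyte and stem cell markers (10 genes) to 7229 to 10550 CPM and oligodendrocyte precursor markers (10 genes) to 636.6 to 5243 CPM, so transcripts of cells other than the labelled population were present throughout. In bulk libraries, fewer cells of a type and less RNA per cell cannot be told apart.

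Promoter sequence was available in RefSeq for 9 of the 12 non-clustered genes as windows of 300 bases, 250 before and 50 after the start, on GRCm38.p6. A set of 3 is shown because the results below turn on these genes: in Pcdh8 and Pcdh17 each knockout value was above each wild type value, and Pcdh15 differed by 2-fold or more between the replicates of both genotypes. Each line runs 5′ to 3′ on the gene's strand and capitals mark CG dinucleotides.
Pcdh8: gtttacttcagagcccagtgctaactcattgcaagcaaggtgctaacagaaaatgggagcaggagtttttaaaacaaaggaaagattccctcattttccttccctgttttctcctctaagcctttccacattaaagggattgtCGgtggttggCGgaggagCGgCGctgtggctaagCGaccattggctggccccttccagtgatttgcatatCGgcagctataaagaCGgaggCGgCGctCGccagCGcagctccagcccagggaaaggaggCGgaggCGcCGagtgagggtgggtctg
Pcdh17: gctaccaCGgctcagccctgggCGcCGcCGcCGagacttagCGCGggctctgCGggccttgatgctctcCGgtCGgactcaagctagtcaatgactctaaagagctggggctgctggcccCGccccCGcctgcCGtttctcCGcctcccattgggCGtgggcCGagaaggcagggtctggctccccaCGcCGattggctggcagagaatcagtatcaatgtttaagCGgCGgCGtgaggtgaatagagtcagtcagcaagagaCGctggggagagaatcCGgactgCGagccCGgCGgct
Pcdh15: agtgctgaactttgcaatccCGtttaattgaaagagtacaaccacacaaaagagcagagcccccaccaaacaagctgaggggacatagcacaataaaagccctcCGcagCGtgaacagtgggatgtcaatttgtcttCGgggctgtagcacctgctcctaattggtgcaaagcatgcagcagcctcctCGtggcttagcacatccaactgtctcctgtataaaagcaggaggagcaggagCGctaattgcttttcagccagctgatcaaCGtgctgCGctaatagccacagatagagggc
The windows are chr14:79771263-79771562 on the minus strand for Pcdh8, chr14:84443313-84443612 on the plus strand for Pcdh17 and chr10:73821617-73821916 on the plus strand for Pcdh15, where the last lies inside a longer GENCODE gene that starts at 73099342. The Pcdh17 window held 26 CG dinucleotides, that of Pcdh8 held 14 and that of Pcdh15 held 8, beside a median of 7 over all 32851 promoter windows of this length. The other 6 windows held 4 (Pcdh20), 11 (Pcdh7), 18 (Pcdh9), 18 (Pcdh19), 23 (Pcdh18) and 24 (Pcdh10). The letters CGCT, the core of a conserved element in the promoters of clustered protocadherins, occurred on either strand in 9 of 9 windows and in 61.8% of all promoters, and every such match contains a CG. A degenerate core of the CTCF recognition sequence occurred on either strand in 1 of 9, that of Pcdh15, and in 8.61% of all promoters. These matches describe the sequence and show no binding.

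What a count of a clustered gene holds depends on how reads in shared exons were assigned. In GENCODE M21, members of the Pcdha cluster share a median of 2860 exon bases with other genes on the same strand and members of the Pcdhg cluster 2119, while the median length of exon of their own was 2480 and 2637 bases. The 3 other protein-coding genes of this region whose exons lie wholly inside shared bases, Gm37013, Gm37388 and Gm42416, with 313 to 2856 exon bases, had 0 counts in all 4 libraries, so reads in those bases were not counted for them. Pcdha3 and Pcdha4, with 2860 and 5274 shared bases, also had 0 counts in all 4 libraries while other genes of the cluster were counted, so reads in the exons shared by the cluster were not added to these members. A further 5 members had 0 counts in some libraries: Pcdha1, Pcdha2, Pcdha9, Pcdhac1 and, in the Pcdhg cluster, Pcdhga1. Pcdhga1 had 0 counts in knockout replicate 2, where the Pcdhg genes together had 3428. Reads in shared exons were thus not added to every member of either cluster. For the other members the handling of such reads is not given in the sources used here. Levels per kb of own exon below assume that such reads were left out. Sequence found in more than 1 member adds a further limit. In the first exon of the longest transcript, up to 12.95% of a Pcdha gene's 100-base windows occur in another member, and up to 9.95% for Pcdhg. Whole transcripts were checked for the other genes. For Pcdhb the highest shares were 7.73% for Pcdhb21 and 5.47% for Pcdhb22, whose positions overlap, with 455 shared exon bases in each. The next was 2.31% for Pcdhb6, and the share was 0% for the non-clustered genes. Exons on the opposite strand overlap 17 of the 69 members, 4 of them non-clustered (Pcdh7, Pcdh8, Pcdh10 and Pcdh19), and the strand setting of the counting is not known. The symbol Pcdha11 stands on 2 rows, and the first of them, ENSMUSG00000007440, starts at 37005203 on chromosome 18, near the RefSeq gene Pcdha10 at 37005320.

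No protocadherin gene was called between the genotypes. At an adjusted p under 0.05 edgeR's quasi-likelihood fit, with p adjusted by the Benjamini-Hochberg method, called 0 of the 64 members counted deeply enough for a test, and 0 of the 14673 genes tested, or 0%. The adjusted p was 0.9999 for every tested member. At an unadjusted p under 0.05 the same test gave 2 members, Pcdh8 and Pcdhga5, or 3.12%, beside 1.05% of all tested genes. DESeq2 and limma voom also called 0 members, with 1 member (1.56%, beside 1.68% of all genes) and 2 members (3.12%, beside 0.593%) at an unadjusted p under 0.05. The 5 untested members were Pcdha3, Pcdha4, Pcdhb1 and Pcdh12, which had 0 counts in all libraries, and Pcdha1, which had 13 counts in wild type replicate 1 and 0 elsewhere. With 0 counts, a level of up to 0.432 to 0.512 CPM, worth 3 counts, is still possible, and this limit covers counting error only.

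Among delta-2 protocadherins, Pcdh8 had the smallest unadjusted p. Pcdh8 (ENSMUSG00000036422.10, chromosome 14, 79766775 to 79771312, minus strand, GRCm38) encodes the protein known in rat as arcadlin, which neuronal activity induces and which drives internalisation of N-cadherin. It had 21.02 and 32.4 CPM in wild type against 48.2 and 57.8 CPM in knockout libraries, so the groups did not overlap. The means were 26.7 ± 8.05 and 53.0 ± 6.84 CPM (SD, n = 2 each), and the log2 fold change was 0.99 (SE 0.40) and an unadjusted p of 0.044 in edgeR's test, above the threshold after adjustment. That unadjusted p was above 0.05 in edgeR's test with wild type replicate 1, wild type replicate 2 or knockout replicate 2 left out, with library size alone as the scaling, and in DESeq2. An exon on the other strand overlaps 436 of its 4538 exon bases.

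Pcdh17, which recruits actin regulators of the WAVE complex to contacts between axons, had 105.5 and 184.2 CPM in wild type against 191.1 and 239.6 CPM in knockout libraries. Its groups did not overlap either, but knockout replicate 1 stood just above wild type replicate 2, and the log2 fold change of 0.57 had a standard error of 0.35. Pcdh10, which also binds the WAVE complex, had 161.2 and 192.8 CPM against 175.1 and 220.2 CPM, with overlapping groups. Pcdh19, an X-linked gene whose mutation in humans causes an epilepsy that mostly affects females, had 97.1 and 121.8 CPM against 88.1 and 101.4 CPM. Both had log2 fold changes smaller than their standard errors, 0.16 with 0.28 for Pcdh10 and -0.21 with 0.29 for Pcdh19. Pcdh18 was the least abundant of the tested non-clustered genes, at 4.58 and 6.48 CPM in wild type against 10.9 and 2.75 CPM in knockout libraries, the latter both its highest and its lowest value.

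Delta-1 genes showed no separation of the genotypes. Pcdh9 was the most abundant non-clustered gene, with 176.3 and 354.8 CPM in wild type against 190.4 and 303.1 CPM in knockout libraries, where replicate 2 was the higher library of each genotype. Pcdh7, whose cytoplasmic domain binds protein phosphatase 1, had 63.6 and 125.7 CPM against 99.8 and 142.7 CPM, and again replicate 2 was higher in both. Pcdh1, which binds the signal transducer SMAD3 in human airway cells, had 146.3 and 121.8 CPM against 100.8 and 133.5 CPM, and here the order of the replicates differed between genotypes. Pcdh11x, an X-linked gene, had 24.2 and 46.5 CPM against 12.98 and 48.1 CPM. The log2 fold changes of these 4 genes lay between -0.21 (Pcdh11x) and 0.36 (Pcdh7), each smaller than its standard error.

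Of the remaining non-clustered genes, Pcdh20 had 85.4 and 122.5 CPM in wild type against 78.7 and 143.1 CPM in knockout libraries. Pcdh12, a protein of endothelial and trophoblast cells, had 0 counts throughout, while endothelial and mural markers summed to 78.4 to 177.1 CPM. Pcdh15 (ENSMUSG00000052613.16), a protein of the tip links of inner ear hair cells that is also known as a transcript of oligodendrocyte precursors, had 69.2 and 323.0 CPM in wild type against 61.3 and 325.5 CPM in knockout libraries. Its genotype means, 196.1 ± 179.5 and 193.4 ± 186.8 CPM (SD, n = 2 each), were nearly the same, and its spread lay within each genotype.

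**Figure D1:**
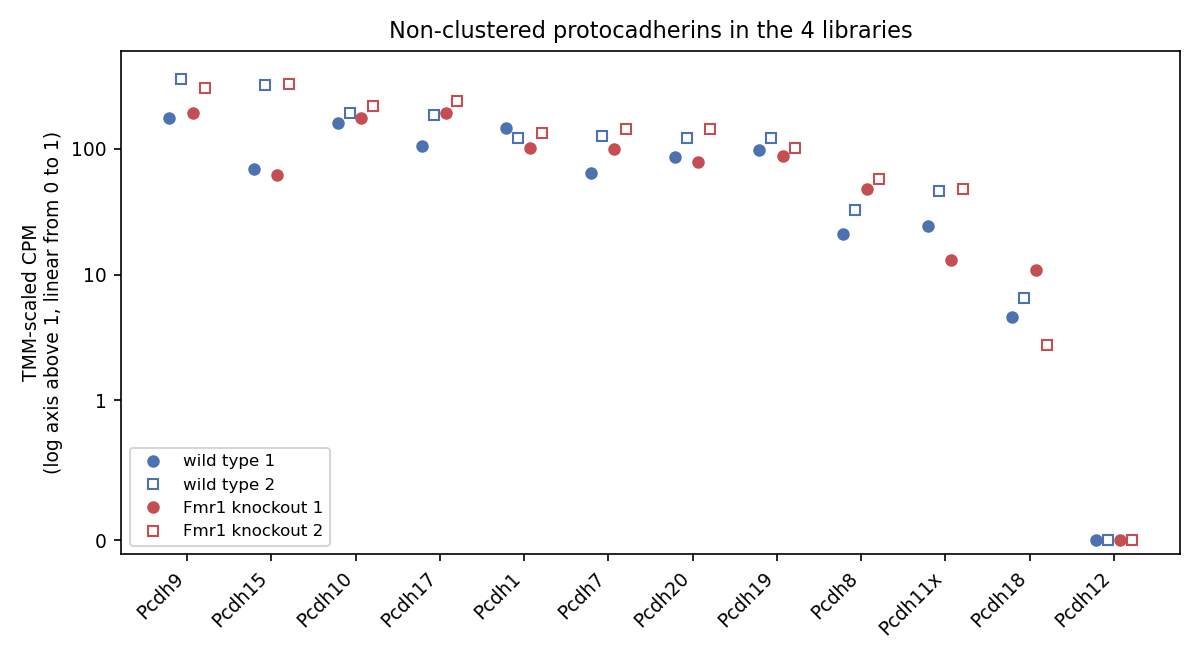
TMM-scaled CPM of each of the 12 non-clustered protocadherin genes in the 4 libraries (blue wild type, red Fmr1 knockout, filled circles replicate 1, open squares replicate 2; log axis above 1 and linear from 0 to 1). Pcdh8 is the gene with red points well above blue, Pcdh15 splits into replicate 1 at 69.2 and 61.3 and replicate 2 at 323.0 and 325.5 CPM, and Pcdh12 lies at 0.

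Divided by the deposited gene length, the level of Pcdh9 was 37.8 ± 12.8 CPM per kb (SD, n = 4 libraries), the highest of the non-clustered genes. Pcdh20 followed at 19.6 ± 5.57 and Pcdh17 at 18.9 ± 5.84 CPM per kb. Next were Pcdh1 at 14.3, Pcdh10 at 11.8, Pcdh7 at 10.2, Pcdh19 at 9.76, Pcdh8 at 8.78 and Pcdh15 at 8.19 CPM per kb. Pcdh11x at 2.36 and Pcdh18 at 1.15 CPM per kb closed the order. The ranges over the 4 libraries overlapped for each pair of neighbours in this order, but such ranges ignore that the genes were measured in the same libraries. Set side by side within each library, 4 of the 10 neighbouring pairs kept the same order in all 4 libraries: Pcdh9 over Pcdh20 by 1.67 to 2.34 times, Pcdh15 over Pcdh11x by 1.67 to 4.07 times, Pcdh1 over Pcdh10 and Pcdh10 over Pcdh7. The deposited length of Pcdh17, 9509 bases, is shorter than its GENCODE M21 exons, 12991 bases.

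Summed over the 57 clustered genes, expression differed little between libraries. The sums were 897.9 and 858.5 CPM in wild type against 842.4 and 871.4 CPM in knockout libraries, with the highest 1.07 times the lowest. The Pcdhg genes contributed 585.1, 526.3, 571.7 and 555.4 CPM, with wild type replicates 1 and 2 given first, then the knockouts. The Pcdhb genes contributed 253.1, 267.6, 206.7 and 257.5 CPM and the Pcdha genes 59.7, 64.7, 64.1 and 58.5 CPM. On the log2 scale the knockout mean differed from the wild type mean by 0.02 for Pcdhg, -0.17 for Pcdhb and -0.02 for Pcdha. No test was made on these sums, since the genes were chosen with earlier results known.

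The 12 non-clustered genes behaved differently between libraries. They summed to 954.5 and 1632 CPM in wild type against 1057 and 1718 CPM in knockout libraries, so replicate 2 was the higher library in each genotype and the highest sum was 1.80 times the lowest. Without Pcdh15 the sums were 885.3, 1309, 996.1 and 1392 CPM, the same order with a ratio of 1.57. The log2 ratio of the genotype means was 0.10.

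**Figure D2:**
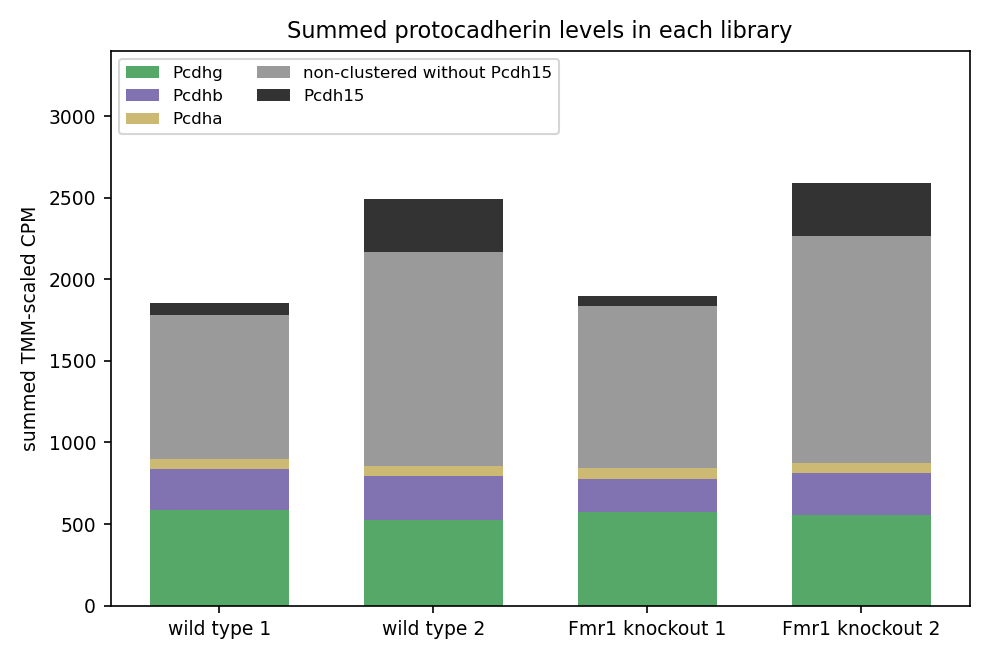
Summed TMM-scaled CPM of Pcdhg, Pcdhb, Pcdha and non-clustered protocadherins, with Pcdh15 drawn apart, as stacked bars starting at 0 for each of the 4 libraries. The clustered part of the bars stays between 842.4 and 897.9 CPM, and the non-clustered part is taller in replicate 2 of each genotype.

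The C-type gene Pcdhgc3, which promotes dendrite branching through Axin1, was the most abundant clustered gene. It had 164.6 and 160.3 CPM in wild type against 201.9 and 179.4 CPM in knockout libraries, or 52.2 CPM per kb of its own exon averaged over the libraries. Both knockout libraries were higher, but the log2 fold change was 0.23 (SE 0.27.) Pcdhgc5, a binding partner of GABA-A receptors in rat neurons, had 77.1 and 81.9 CPM against 107.4 and 66.8 CPM. Pcdhgc4, the isoform needed for survival of cortical interneurons, had 34.2 and 25.6 CPM against 30.2 and 19.8 CPM, and the groups overlapped for both genes. The 3 C-type genes took 47.2% and 50.9% of Pcdhg counts in wild type and 59.4% and 47.9% in knockout libraries, so the highest share stood in a single knockout library.

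Among the alternate Pcdhg genes, which are chosen stochastically by neurons, Pcdhga11 was the most abundant at 40.7 and 44.1 CPM in wild type against 21.7 and 59.5 CPM in knockout libraries. Here the wild type values lay between the knockout values. Pcdhga5 (ENSMUSG00000103567.1, chromosome 18, first exon near 37694380, plus strand) had 21.4 and 14.7 CPM in wild type against 6.49 and 6.32 CPM in knockout libraries, with no overlap. Its log2 fold change was -1.49 (SE 0.62) and an unadjusted p of 0.0483 in edgeR's test, and 0.9999 after adjustment. That unadjusted p was above 0.05 with DESeq2 size factors, without a filter on low counts, in DESeq2, in limma voom and with any of the 4 libraries left out. Pcdhga7 had 25.1 and 11.4 CPM against 14.3 and 7.94 CPM, lower in replicate 2 of each genotype.

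Of the Pcdhb genes, most of which lack shared exons, Pcdhb9, Pcdhb16 and Pcdhb14 had the highest mean CPM. Pcdhb9 had 24.4 and 30.8 CPM in wild type against 33.1 and 16.2 CPM in knockout libraries, and Pcdhb16 had 22.9 and 18.7 against 30.4 and 21.7 CPM, with overlap in both. Pcdhb14 had 33.1 and 30.8 CPM against 10.2 and 18.6 CPM, without overlap, a log2 fold change of -1.14 (SE 0.50) and an unadjusted p of 0.0574 in edgeR's test. In the other direction Pcdhb10 had 4.92 and 7.20 CPM against 9.05 and 26.6 CPM, with a log2 fold change of 1.55 and a standard error of 0.76. Pcdhb13 had 3.90 and 5.76 CPM against 5.64 and 18.5 CPM. For both of these the larger knockout mean came mainly from knockout replicate 2.

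Alternate Pcdha genes were the least abundant and varied most between libraries. Per kb of own exon their median level was 1.32 CPM, beside 2.73 for Pcdhb, 4.77 for Pcdhga and 6.34 for Pcdhgb genes. Pcdhac2, a C-type gene required for the even spacing of serotonergic axons, was the highest of the cluster per kb, at 4.83 CPM per kb of own exon, with 15.1 and 15.8 CPM in wild type against 16.6 and 11.02 CPM in knockout libraries. The other C-type gene, Pcdhac1, had 7.80 and 9.36 CPM in wild type against 0 and 2.59 CPM in knockout libraries, where the last value rests on 16 counts. Its log2 fold change of -2.70 had a standard error of 1.64. Together the C-type pair took 38.4% and 39.0% of Pcdha counts in wild type and 25.9% and 23.3% in knockout libraries, without overlap. No test was made on this share, which rests on 352 to 449 Pcdha counts per library. The groups of Pcdhac2 alone overlapped.

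Of the alternate Pcdha genes given here, Pcdha9 and Pcdha2 had 0 counts in a library, and the others were counted in every library. Pcdha12 had 2.20 and 5.04 CPM in wild type against 10.9 and 15.6 CPM in knockout libraries, a log2 fold change of 1.86 (SE 0.82) and an unadjusted p of 0.0585 in edgeR's test. Pcdha9 had 0 and 6.62 CPM against 7.86 and 12.6 CPM. Pcdha2 had 6.44 and 3.31 CPM against 11.4 and 0 CPM, where the last library had 0 counts and the other knockout library 67. Pcdha7 had 9.66 and 1.30 CPM against 2.56 and 1.78 CPM, high in wild type replicate 1 alone. Pcdha6 (chosen after its values were seen) showed the widest ratio among the Pcdha genes counted in all 4 libraries, 23.6 between 4.03 CPM in wild type replicate 2 and 0.171 CPM in knockout replicate 1, which rests on a single count.

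The ratio of the highest to the lowest library had a median of 5.35 over the 8 Pcdha genes counted in all libraries. It was 2.45 over 21 Pcdhb genes, 1.88 over 20 Pcdhg genes and 2.25 over 11 non-clustered genes. The median over the genes of the mean level was 3.62 CPM for Pcdha, 8.86 for Pcdhb, 16.2 for Pcdhg and 107.7 for non-clustered genes. The part of low counts in these ratios was not tested. The rank order of the genes was also less alike between libraries for Pcdha, with Spearman's rho of 0.20 to 0.76 over 14 genes, than for Pcdhg, with 0.68 to 0.80 over 21 genes. Genes are not independent replicates, and these correlations are descriptions.

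**Figure D3:**
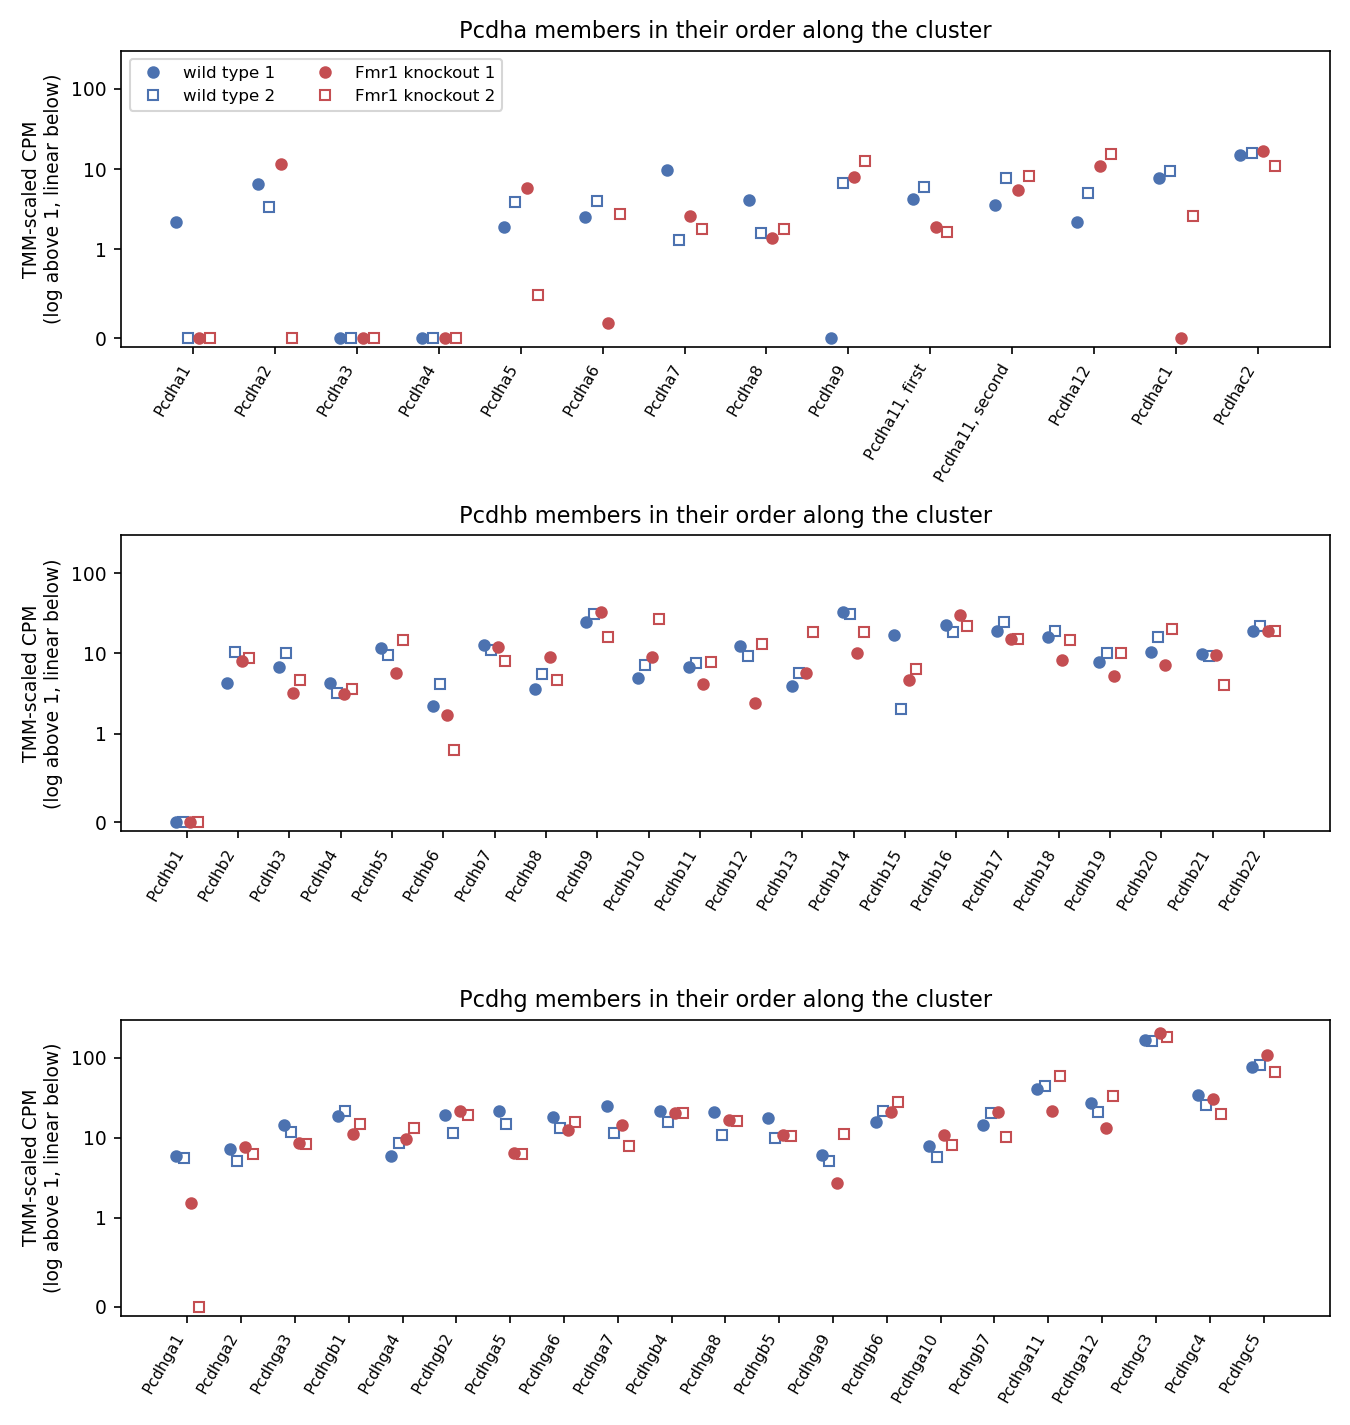
TMM-scaled CPM of the clustered genes in the order of their first exons along chromosome 18, in 1 panel per cluster (blue wild type, red Fmr1 knockout, filled circles replicate 1, open squares replicate 2; log axis above 1 and linear below). Pcdha points scatter most and reach 0, and the highest Pcdhg values belong to the C-type genes Pcdhgc3 and Pcdhgc5 at the end of the cluster.

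Over all 64 tested members, the knockout pair of libraries was above the wild type pair for 8 genes, or 12.5%, beside 11.8% of all tested genes. It was below for 11 genes, or 17.2%, beside 13.7%. Both shares were near the background. The log2 fold change was above 0 for 27 of 64 members, or 42.2%, beside 51.6% of all tested genes, and its median was -0.11 beside 0.02 for all genes. Among clustered genes 21 of 53 estimates were above 0, made up of 5 of 11 Pcdha, 6 of 21 Pcdhb and 10 of 21 Pcdhg genes, and among non-clustered genes 6 of 11 were. Median log2 fold changes were -0.17 for Pcdha, -0.21 for Pcdhb, -0.06 for Pcdhg and 0.09 for non-clustered genes. The knockout pair of libraries was below the wild type pair for 5 of 21 Pcdhb genes, or 23.8%, beside 13.7% of all tested genes. These were Pcdhb3, Pcdhb6, Pcdhb14, Pcdhb17 and Pcdhb18, which were not called and, apart from Pcdhb14, are named after their values were seen. It was above for 1 Pcdhb gene, Pcdhb10, or 4.76%, beside 11.8%.

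**Figure D4:**
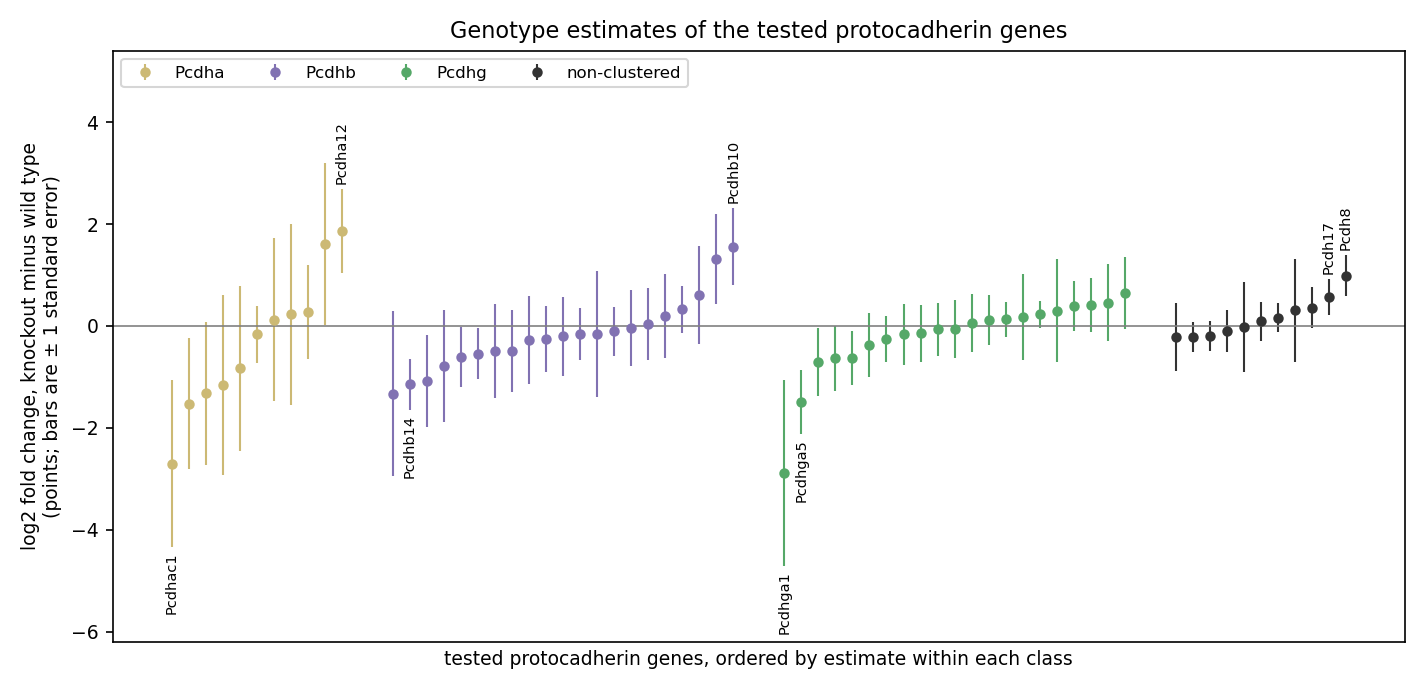
Log2 fold change, knockout minus wild type, of the 64 tested protocadherin genes from edgeR, ordered within each class, with bars of ± 1 standard error. The bars of 48 of the 64 genes cross 0, the median standard error is 1.59 for Pcdha beside 0.40 for non-clustered genes, the longest bar is that of Pcdhga1, and Pcdh8 at 0.99 and Pcdhga5 at -1.49 are the members with an unadjusted p under 0.05.

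The 2 libraries of each genotype were compared next, without a test, since each side is 1 library. In wild type 11 of 64 members differed by 2-fold or more between replicates, or 17.2%, beside 24.9% of all tested genes. In knockout 20 members did, or 31.2%, beside 35.4%. A gene that was 2-fold or more higher in replicate 2 in both genotypes was found once, Pcdh15, or 1.56% of members beside 6.41% of all genes, and 0 members were 2-fold or more lower in both, beside 5.64%. The replicates of Pcdh15 differed 4.67-fold in wild type (exact 95% interval 4.2002 to 5.20) and 5.31-fold in knockout (4.74 to 5.96). Without molecular identifiers, reads are not independent molecules, and these intervals cover counting error only. Pcdh11x followed, with 1.92-fold (1.57 to 2.35) and 3.71-fold (2.87 to 4.83).

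Markers of other cells differed between the same libraries. All 10 oligodendrocyte precursor markers, of which Pdgfra is the defining receptor, were higher in replicate 2 in both genotypes, by log2 ratios of 1.56 to 3.54. They summed to 636.6 and 4216 CPM in wild type against 938.6 and 5243 CPM in knockout libraries. Mature oligodendrocyte markers (8 genes) summed to 1931 and 11239 against 4040 and 10258 CPM. All 10 neuroblast and immature granule neuron markers were lower in replicate 2 in both genotypes, by log2 ratios of -0.43 to -1.77, and summed to 3177 and 1682 against 3656 and 1821 CPM. Mature granule neuron markers (9 genes) summed to 1939 and 3140 against 1847 and 4313 CPM, higher in replicate 2, and the astrocyte and stem cell markers to 10217 and 8668 against 10550 and 7229 CPM, lower in replicate 2. None of the markers in these lists was at 0 in all libraries, and mitochondrial rRNA took 1.19% and 3.32% against 1.32% and 4.57% of counts. The part of all these in the values of Pcdh15 and the other non-clustered genes was not tested.

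The classes differed in the median log2 ratio of replicate 2 to replicate 1. It was 0.62 in wild type and 0.41 in knockout over the non-clustered genes, beside -0.00 and -0.02 over all tested genes. Over the clustered genes it was 0.07 and 0.02, made up of 0.47 and 0.36 for Pcdha, 0.24 and 0.45 for Pcdhb and -0.39 and -0.04 for Pcdhg. Of 21 genes each, 13 and 15 Pcdhb genes but 6 and 7 Pcdhg genes were higher in replicate 2. The rank order of the 12 non-clustered genes was closest between libraries of the same replicate number, with Spearman's rho of 0.91 between both replicates 1 and 0.97 between both replicates 2, beside 0.78 within wild type and 0.75 within knockout.

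**Figure D5:**
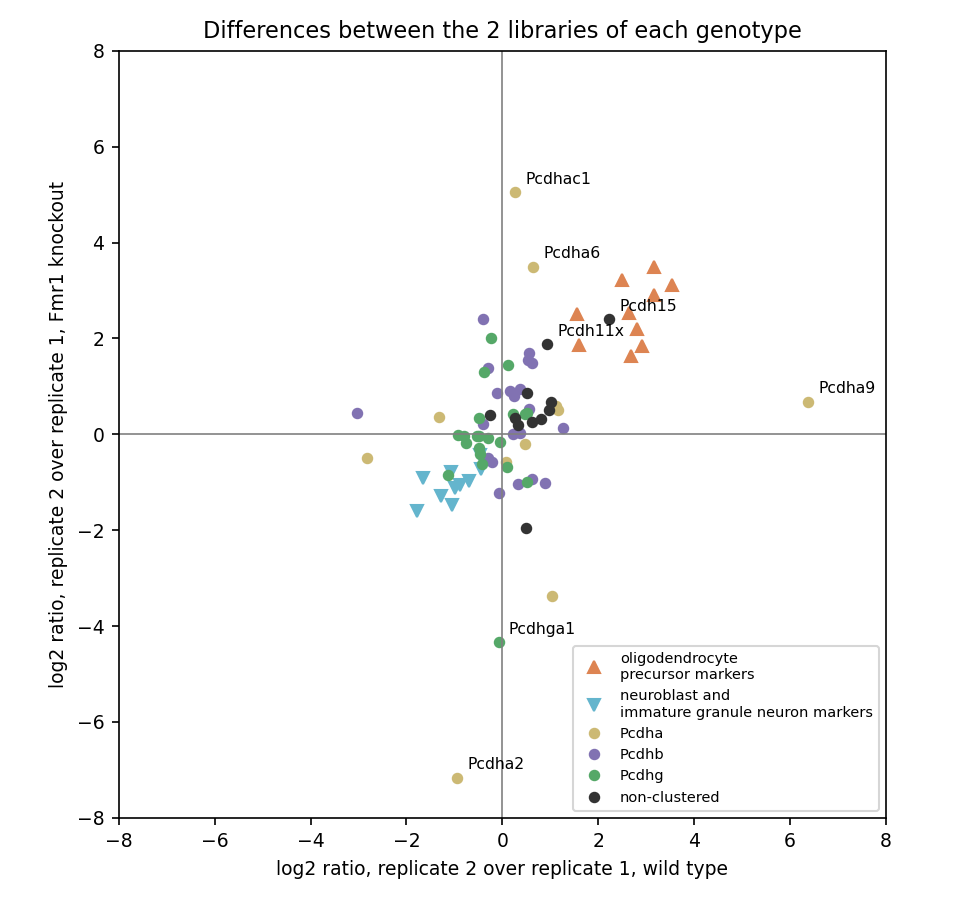
Log2 ratio of replicate 2 to replicate 1 in wild type (horizontal) and in Fmr1 knockout (vertical) for the 64 tested protocadherin genes (circles, coloured by class), oligodendrocyte precursor markers (upward triangles) and neuroblast and immature granule neuron markers (downward triangles). Pcdh15 at 2.22 and 2.41 lies among the upward triangles. Of 53 clustered genes, 9 differ by 2-fold or more in wild type (17%, beside 24.9% of all tested genes). In knockout 17 do (32.1%, beside 35.4%). Some points far along 1 axis, such as Pcdha2 and Pcdha9, have a library at 0 counts. Others do not, such as Pcdha5 (34 and 3 counts in knockout) and Pcdhb15 (100 and 14 counts in wild type).

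Genes that control or act with protocadherins gave no calls. Of 18 chromatin and looping regulators of the clusters, 9 had estimates above 0 and 9 below, with a median log2 fold change of 0.00 and 0 genes called or at an unadjusted p under 0.05 in edgeR's test. The one with the highest CPM, Hnrnpu, a nuclear matrix RNA-binding protein, had 1007 and 819.1 CPM in wild type against 869.1 and 859.7 CPM in knockout libraries. Ctcf (chosen after its values were seen) showed 124.8 and 123.8 against 120.2 and 123.8 CPM, so it hardly varied. Of 19 tested signalling and binding partners 10 were above and 9 below 0, with a median of 0.07. Their member with the highest CPM, the WAVE complex subunit Nckap1, had 387.4 and 600.8 against 329.5 and 586.2 CPM, with replicate 2 the higher in both genotypes. Of 7 proteases that cut protocadherins 5 were above and 2 below 0, with a median of 0.24, and Adam10, which sheds their extracellular part, had 105.1 and 150.05 against 108.5 and 212.6 CPM. Of 14 classical cadherins and catenins 9 were above and 5 below 0, with a median of 0.06, and Ctnnb1, beta-catenin, had 352.6 and 506.3 against 422.7 and 541.3 CPM. In each of these lists edgeR called 0 genes, beside 0% of all tested genes. It gave 0 at an unadjusted p under 0.05, beside 1.05% of all tested genes, so these counts were near the background. The ranges of the genotypes overlapped for Hnrnpu, Nckap1, Adam10 and Ctnnb1.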

How the data were processed

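Expression was measured by RNA sequencing in 2 wild type and 2 Fmr1-/y libraries, poly(A)-selected and strand-specific per the labels' protocols. The authors deposited raw counts per gene. Alignment used STAR 2.5.3a and the GRCm38 build, per the submitters' processing notes. Which annotation release, counting program and strand setting were used is not given in the sources used here. The table held 0 further columns of per-sample values.

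Counts were filtered with filterByExpr, scaled by TMM and tested with edgeR 4.0.16 (R 4.3.3), estimateDisp and robust glmQLFit, two-sided, with genotype as the only term and Benjamini-Hochberg adjustment over all 14673 genes tested. The standard error is the size of the log2 fold change over the square root of F. Replicate ratios used CPM with a prior count of 0.5. Positions and exons came from GENCODE M21, chosen here; 67 of 69 deposited lengths equal its exon length. DESeq2 1.42.0 and limma 3.58.1 were alternatives. The edgeR step was tested on simulated data, with pass criteria set only for a spread well below that of these libraries. That run does not show how many true changes the step would find here. Depth was a median of 159 counts per library over tested genes, and the common biological coefficient of variation was 0.538. An exact permutation test of 2 against 2 libraries cannot go below p = 0.333, so none was made. Chi-square per degree of freedom, 41.3 between wild type and 56.9 between knockout libraries, was above counting noise. Such a spread may be technical, so it cannot show that the libraries of a pair came from separate animals. Each library was kept as its own replicate in the tests.

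Members and gene lists were chosen with earlier results of these data known. Named are all non-clustered and C-type genes, the 3 highest by CPM per cluster, members at an unadjusted p under 0.05, the 3 clustered genes of smallest p per direction, the 3 with the largest replicate ratio of like sign per direction, and the gene of highest CPM in each pathway list. Where another gene is named, the text says that it was picked after its values were known.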

Additional observations from a re-analysis of the deposited data

How the results depend on the processing

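No alternative called a protocadherin gene: 0 of the members were called with DESeq2 size factors, library size alone, upper quartile scaling, no filter, a minimum of 10 counts in 2 libraries, DESeq2, limma voom, no robust estimation, no mitochondrial genes, the replicate block or each library left out, and the smallest adjusted p among members was 0.4338, with the block in edgeR. Members at an unadjusted p under 0.05 numbered 1 with DESeq2 size factors (1.56%, beside 1.02% of all genes). They numbered 1 without a filter (1.54%, beside 1.22%) and 1 with DESeq2 (1.56%, beside 1.68%). With a library left out they numbered 0 to 6 (6, or 9.38% beside 6.57% of all genes, without knockout replicate 1, and 0 without wild type replicate 1). Such fits leave 1 library in a genotype, so these counts of 0 to 6 were not read as a loss or gain of signal. With the replicate number as a block, 10 genes were called over the whole table, and 8 members (12.5%) beside 5.30% of all genes had an unadjusted p under 0.05 in edgeR; the replicate 1 deviations of both genotypes correlated at 0.323 over genes, but the labels give the number no shared litter, batch or day. The count 2-fold higher in replicate 2 in both genotypes was 7 at 1.5-fold (10.9%, beside 12.1% of all genes), and the count lower was 2 at 1.5-fold (3.12%, beside 11.6%) and 2 with library size alone (beside 7.5%). With a library left out the log2 ratio of summed levels ran from -0.35 to -0.015 for Pcdhb and from -0.067 to 0.093 for Pcdhg. Log2 fold changes that changed sign were those of Pcdh15 (0.0040 with DESeq2 size factors, 0.0044 in DESeq2), Pcdh18 (-0.037 in voom) and Pcdha2 (-2.32 in voom, -1.51 with the block); the cause was not tested. Leaving out a library leaves 1 in its genotype, assumed to vary like the others, and gave ranges across 0 for Pcdh7 (-0.057 to 0.92), Pcdh9 (-0.53 to 0.47), Pcdh10 (-0.029 to 0.31), Pcdh11x (-1.46 to 0.44), Pcdh15 (-1.69 to 1.47), Pcdh18 (-1.001 to 0.97), Pcdh20 (-0.41 to 0.46), Pcdha2 (-7.95 to 1.22), Pcdha7 (-2.16 to 0.73), Pcdhac2 (-0.49 to 0.086), Pcdhb9 (-0.77 to 0.25), Pcdhga11 (-0.98 to 0.49), Pcdhgc4 (-0.60 to 0.0011) and Pcdhgc5 (-0.25 to 0.42). Pcdh8 stayed between 0.70 and 1.32 and Pcdhga5 between -1.75 and -1.20.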
